A study of Mus musculus with 2 samples.

Results

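Acute phase genes were examined in mouse lung on 1 array of Rosa26-Foxm1 lung and 1 array of wild-type lung, both taken 12 weeks after a carcinogen. The 9 genes Lcn2, Saa3, Lrg1, Steap4, Hp, Orm1, Cp, Socs3 and Chil1, of 13840 genes named on the array, were chosen by symbol after several of them had been seen to differ between these arrays. Their differences are therefore a description of the comparison that chose them. Rosa26-Foxm1 mice carry a transgene for Foxm1, a forkhead transcription factor of the cell cycle, under the Rosa26 promoter, which is active in most cell types. Mice of both genotypes had been given 3-methylcholanthrene once by intraperitoneal injection (15 µg per g of body weight), and then 6 weekly injections of the tumour promoter butylated hydroxytoluene, the first of 150 and the others of 200 µg per g. Each array held 1 pool of RNA, from left lobes of 3 animals. The labels call the wild-type mice male and FVB/N, and give no sex or strain for the Rosa26-Foxm1 mice, nor the age of either. Lung taken at 24 weeks, without the carcinogen or from single mice was not analysed here.

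Values are probe intensities after quantile normalisation of the 2 arrays, and the median of an array, 1.00, served as a floor below which no level was read. A difference is the log2 value of Rosa26-Foxm1 lung minus that of wild-type lung, and a gene counts as measured when either array was above the floor. A fold against an array below the floor is a lower bound, and such a gene is counted by that bound, so its true fold may be larger. Of all measured genes, 7.08% were higher by 1.5-fold or more and 8.45% were lower, and every count of a gene list at 1.5-fold is to be read beside these shares. With 1 array per genotype there was no spread between replicates and no test, and precision is limited by the number of arrays. The only error that could be had came from the disagreement between 2 probes of the same gene, over 317 genes. The SD of that disagreement divided by the square root of 2, here called the probe SD, was 0.31 on the log2 scale. It was 0.23 for the brighter and 0.37 for the dimmer genes. It does not hold the spread between mice. Both arrays had the markers of lung, with surfactant protein C (Sftpc) at 859 in Rosa26-Foxm1 and 1228 in wild-type lung. Foxm1 itself was near the floor, at 1.23 in Rosa26-Foxm1 and 1.13 in wild-type lung, and the sources used here do not say whether its probe reads the transgene.

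The acute phase response is the change in secreted proteins that follows injury or infection. Interleukin 6 and its relatives act through the receptor subunit gp130 and STAT3, and interleukin 1 and TNF act through NF-kB and C/EBP factors, to raise the transcription of proteins that bind iron, haem, lipids and bacterial products. The liver makes most of them, but inflamed epithelium, macrophages and neutrophils make some locally. Lcn2, Saa3 and Chil1 are well known from such local production in the lung.

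Of the 8 acute phase genes with a probe of their own, 5 were 2-fold or more above wild type in Rosa26-Foxm1 lung and the other 3 lay within 1.5-fold. All 8 were above the floor on both arrays, and each rests on 1 probe. Lcn2, which encodes lipocalin 2, a protein that sequesters bacterial iron carriers, was at 999 in Rosa26-Foxm1 lung and 65.4 in wild-type lung, a 15.3-fold difference (3.93 on the log2 scale). Saa3, an apolipoprotein of the serum amyloid A family made outside the liver, was at 110 in Rosa26-Foxm1 and 10.4 in wild-type lung (10.6-fold, 3.41). Their differences were the third and the seventh highest of 9518 measured genes, whereas the difference of the feedback inhibitor Socs3 was close to 0. Chil1, a chitinase-like lectin without enzyme activity, was at 410 in Rosa26-Foxm1 and 82.9 in wild-type lung (4.95-fold, 2.31). Steap4, a metalloreductase that reduces iron and copper, was at 24.3 in Rosa26-Foxm1 and 5.08 in wild-type lung (4.78-fold, 2.26). Lrg1, a leucine-rich secreted glycoprotein, was at 89.7 in Rosa26-Foxm1 and 34.7 in wild-type lung (2.59-fold, 1.37). These 5 differences were between 4.44 and 12.7 times the probe SD. This is no test, since the genes were chosen from these arrays and the probe SD leaves out the spread between mice.

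The remaining genes differed little. Cp, the copper-carrying ferroxidase ceruloplasmin, was at 9.23 in Rosa26-Foxm1 and 7.13 in wild-type lung (1.29-fold, 0.37). Hp, the haemoglobin-binding protein haptoglobin, was at 686 in Rosa26-Foxm1 and 649 in wild-type lung (0.08). Socs3, which encodes the inhibitor of gp130 signalling, was at 154 in Rosa26-Foxm1 and 164 in wild-type lung (-0.09), and at 0.06 with median scaling, so that no direction can be given. The differences of Hp and Socs3 were smaller than the probe SD, and that of Cp was 1.20 times the probe SD. With median scaling Hp stood at 0.36, above the probe SD. Lrg1 was the nearest of the 8 genes above the 2-fold threshold and Cp the nearest below it, with no member between 0.37 and 1.37.

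**Figure D1:**
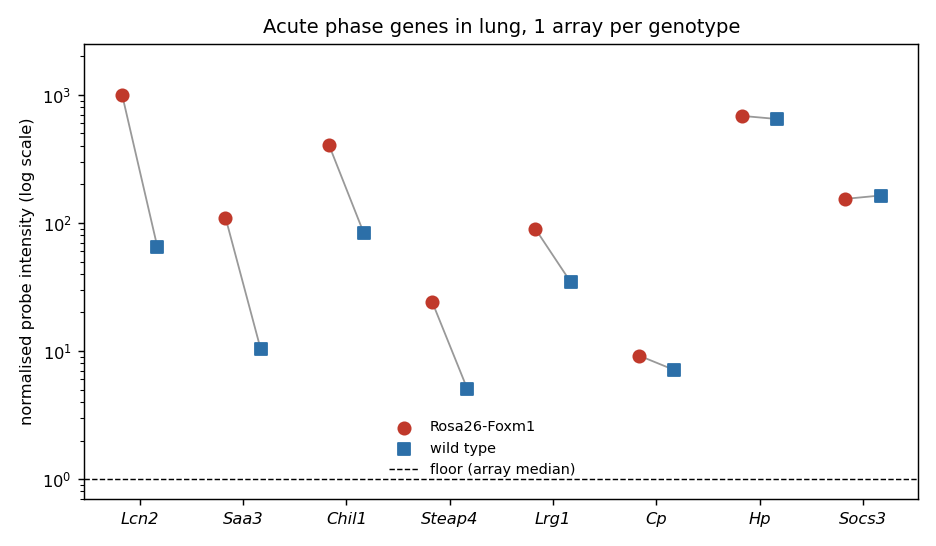
Normalised probe intensity (log scale) of the 8 acute phase genes with a probe of their own, with Rosa26-Foxm1 lung as red circles on the left of each pair and wild-type lung as blue squares on the right, 1 array each. The lines of Lcn2 and Saa3 are the steepest, those of Hp and Socs3 are almost flat, and every point lies above the dashed floor of 1.00.

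Among all 9518 measured genes, 188, or 1.98%, were higher by 2-fold or more in Rosa26-Foxm1 lung, and 144, or 1.51%, were lower by as much. The 5 of 8 acute phase genes are set beside that share only as a description, since the genes were chosen from this comparison. The median difference of the 8 genes was 1.81, against -0.06 for all measured genes, whose 5th and 95th percentiles were -0.71 and 0.69. Chil1 ranked 21, Steap4 26 and Lrg1 77 from the top, and Cp, Hp and Socs3 ranked 1453, 3493 and 5066.

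**Figure D2:**
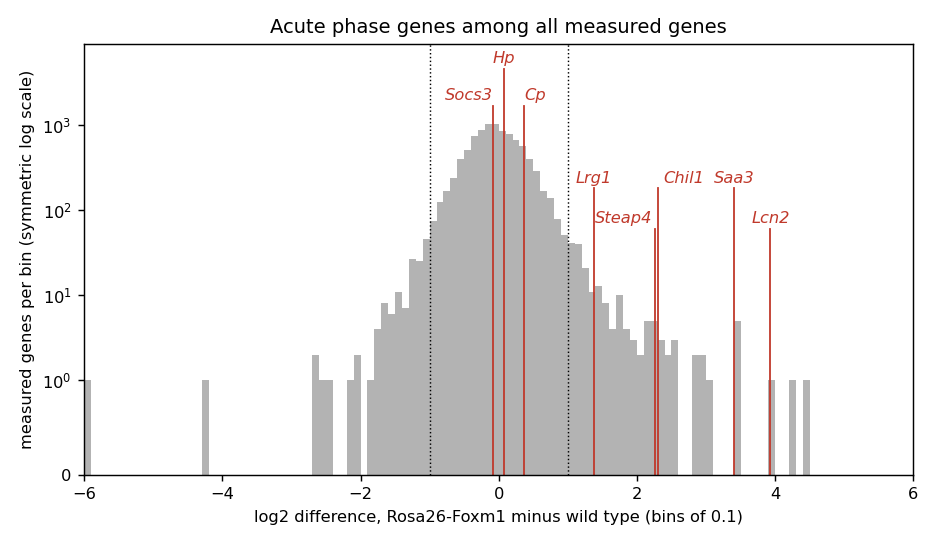
Number of measured genes (symmetric log scale) per bin of 0.1 in the log2 difference of Rosa26-Foxm1 minus wild-type lung, with the acute phase genes as red lines and 2-fold as dotted lines. Lcn2, Saa3, Chil1, Steap4 and Lrg1 lie right of the upper 2-fold line and Cp, Hp and Socs3 inside the body of the distribution.

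Promoter windows from RefSeq (GRCm38.p6), from 250 bases before to 50 after the transcription start, were matched for 7 of the 9 genes. The windows of Lcn2 and Saa3, the genes with the largest differences, and of Steap4, which held the most matches, are shown beside that of Socs3, whose level hardly differed. Capitals mark matches to the STAT motif TTCNNNGAA, the C/EBP motif TTGCNNAA and the NF-kB consensus GGGRNNYYCC, each on either strand. They also mark the TATA box TATAAA on the gene strand. In these motifs N is any base, R a purine and Y a pyrimidine. The windows lie at chr2:32387690-32387989 (minus strand), chr7:46715627-46715926 (minus strand), chr5:7960222-7960521 (plus strand) and chr11:117969317-117969616 (minus strand), in that order.
Lcn2: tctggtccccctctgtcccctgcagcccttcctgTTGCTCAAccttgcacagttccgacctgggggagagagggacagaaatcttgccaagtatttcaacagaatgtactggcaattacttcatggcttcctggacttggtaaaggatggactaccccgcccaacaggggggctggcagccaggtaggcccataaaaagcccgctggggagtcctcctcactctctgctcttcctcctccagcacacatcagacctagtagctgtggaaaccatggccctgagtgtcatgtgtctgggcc
Saa3: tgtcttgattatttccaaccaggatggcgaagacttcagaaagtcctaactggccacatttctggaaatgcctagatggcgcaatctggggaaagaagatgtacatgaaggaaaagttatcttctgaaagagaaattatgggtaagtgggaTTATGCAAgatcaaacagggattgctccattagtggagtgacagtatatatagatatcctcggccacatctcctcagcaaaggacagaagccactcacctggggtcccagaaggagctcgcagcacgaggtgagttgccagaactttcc
Steap4: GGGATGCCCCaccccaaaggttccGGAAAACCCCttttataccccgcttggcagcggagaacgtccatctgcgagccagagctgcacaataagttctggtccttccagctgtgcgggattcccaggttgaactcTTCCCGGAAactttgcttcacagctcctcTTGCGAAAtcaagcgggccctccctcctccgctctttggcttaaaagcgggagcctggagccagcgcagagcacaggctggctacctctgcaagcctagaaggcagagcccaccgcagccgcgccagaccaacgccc
Socs3: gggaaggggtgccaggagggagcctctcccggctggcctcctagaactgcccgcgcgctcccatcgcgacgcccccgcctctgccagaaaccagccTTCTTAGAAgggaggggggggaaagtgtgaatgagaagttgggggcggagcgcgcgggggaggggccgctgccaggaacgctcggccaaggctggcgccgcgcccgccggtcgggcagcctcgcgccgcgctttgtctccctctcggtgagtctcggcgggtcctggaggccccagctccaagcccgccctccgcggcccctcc

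Lcn2 held a C/EBP match from -216 to -209 relative to the start, and Saa3 a C/EBP match on the opposite strand from -99 to -92. Steap4 held a STAT match from -116 to -108, a C/EBP match from -87 to -80 and a pair of NF-kB matches, from -250 to -241 and from -226 to -217. Socs3 held a STAT match from -154 to -146, and the windows of Lcn2 and Saa3 held none. Whether any match bears on the differences was not tested. Chil1 held 1 NF-kB match (GGGACTCCCC, -179 to -170) and Lrg1 only a TATAAA match just after the start. Of 8 windows, counting both starts of Cp, 4 held a C/EBP match, 2 a STAT match, 2 an NF-kB match and 2 a TATAAA match. Of 32851 mouse promoter windows of the same length, 10.8% held a C/EBP match, 8.3% a STAT match, 8.46% an NF-kB match and 8.32% a TATAAA match. A match of letters does not show binding.

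**Figure D3:**
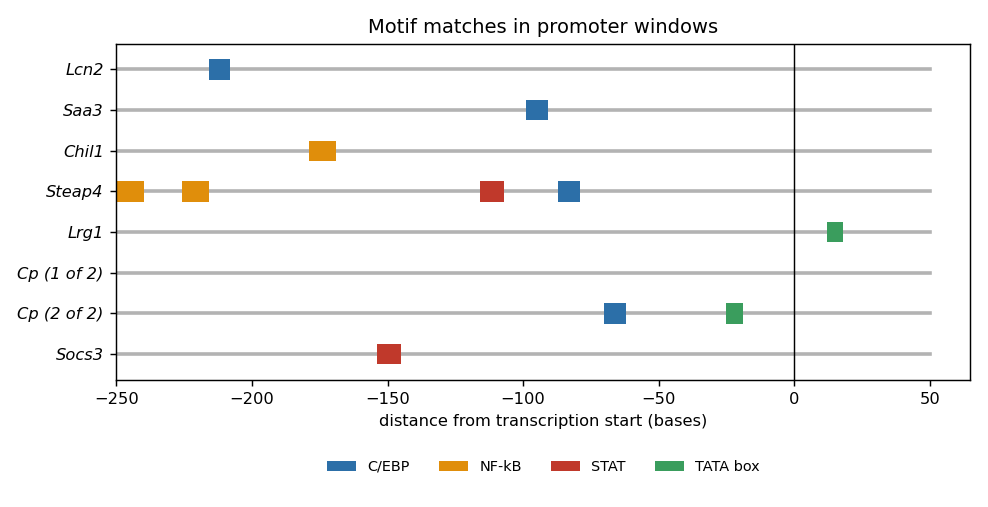
Position of motif matches (coloured boxes) in the promoter windows of 7 acute phase genes, in bases from the transcription start (vertical line). Steap4 holds 4 matches of 3 kinds, Lcn2 and Saa3 a C/EBP match each, Socs3 a STAT match, and the upstream window of Cp none.

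Iron and haem handling joins Lcn2, Steap4, Cp and Hp, and most other genes of that pathway lay within 1.5-fold. Of 9 measured genes of the STEAP, ferroxidase and iron transport list, 1 was at least 1.5-fold higher, 1 was lower and 7 lay between. Slc11a1, the phagosomal metal exporter of macrophages, was at 12.6 in Rosa26-Foxm1 and 7.05 in wild-type lung (1.79-fold higher). Slc39a14, a zinc and iron importer that interleukin 6 is known to raise in liver, was at 6.92 in Rosa26-Foxm1 and 39.1 in wild-type lung (5.66-fold lower). Steap1 was close to the floor at 1.17 in Rosa26-Foxm1 lung and below it in wild-type lung, and Steap3 was below the floor on both arrays. The ferritin chains Fth1 and Ftl1 stood at 0.32 and -0.54, the haem oxygenase Hmox1 at 0.12 and the iron exporter Slc40a1 at 0.01 (-0.01 with median scaling). Slc22a17, a receptor of lipocalin 2, was at 10.2 in Rosa26-Foxm1 and 9.85 in wild-type lung (0.04). Cd163, the macrophage receptor that clears haptoglobin with haemoglobin, was at 4.44 in Rosa26-Foxm1 and 4.46 in wild-type lung (-0.01, and 0.02 with loess scaling). Haemopexin (Hpx), the plasma carrier of haem, was near the floor at 1.61 in Rosa26-Foxm1 and 1.21 in wild-type lung.

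Within the serum amyloid A family, Saa3 was the 1 gene with its own probe above the floor. A probe that the annotation gives to both Saa1 and Saa2, the forms that the liver secretes, was at 28.3 in Rosa26-Foxm1 and 37.1 in wild-type lung (-0.39), and it is counted for neither gene. The probes of Saa2 alone and of Saa4 were below the floor on both arrays. Of the receptors that serum amyloid A proteins are known to bind, Fpr2 stood at -0.55, Tlr2 at 0.08 and the lipoprotein receptor Scarb1 at -0.73 (27.0 in Rosa26-Foxm1 and 44.9 in wild-type lung, 1.66-fold lower). Orm1, an orosomucoid that carries lipophilic molecules in plasma, had no probe of its own. A probe shared by Orm1 and Orm2 was at 19.1 in Rosa26-Foxm1 and 8.82 in wild-type lung (2.17-fold higher), while the probe of Orm2 alone was below the floor on both arrays. Which of these genes the shared probe read cannot be told apart, and it is left out of the counts.

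Lrg1 is known to bind the TGF-beta coreceptor endoglin in endothelial cells. Endoglin (Eng) was at 118 in Rosa26-Foxm1 and 216 in wild-type lung (1.82-fold lower), Tgfbr2 at 23.7 against 43.3 in wild type (1.82-fold lower) and the receptor kinase Acvrl1 at 54.1 against 83.5 in wild type (1.54-fold lower). These 3 receptors were lower on the array on which Lrg1 was higher, and with 1 array per genotype a relation between them was not tested. Tgfbr1 and the ligand Tgfb1 were both at -0.07. Of 15 endothelial markers measured, Eng among them, 8 were at least 1.5-fold lower in Rosa26-Foxm1 lung and none was higher, with Calcrl at -1.15, Epas1 at -1.10, Pecam1 at -1.08, Cdh5 at -0.94, Tie1 at -0.93, Kdr at -0.82 and Tek at -0.65. Vwf stood at 0.49, and Egfl7 and Ramp2 at -0.06 and -0.08 (above 0 with median scaling). Their summed intensity was 1641 in Rosa26-Foxm1 and 2559 in wild-type lung. Their part in the values of the endoglin receptors was not tested, and in pooled tissue RNA fewer cells of a type and less RNA per cell cannot be told apart. Over all 15 measured receptors and partners of the acute phase proteins, none was at least 1.5-fold higher, 6 were lower and 9 lay between. Besides those named, the adhesion receptor Cd44 and the protease Mmp9, which binds lipocalin 2, stood at -0.59 and -0.60, and the channel P2rx7 at 0.26.

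Other genes of the chitinase family lay within 1.5-fold, unlike Chil1. Chil3, a chitinase-like protein abundant in alveolar macrophages, was at 790 in Rosa26-Foxm1 and 587 in wild-type lung (0.43, and 0.22 by its other probe). The acidic chitinase Chia1, an enzyme of the airway, was at 187 in Rosa26-Foxm1 and 232 in wild-type lung (-0.31). Chit1 was below the floor on both arrays. Ctbs and Chid1 stood at 0.17 and 0.16, and Ovgp1 was at the floor. The 5 measured members of the family other than Chil1 ranged from -0.31 to 0.43.

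Upstream of these genes, a list of interleukin 6 and interleukin 1 family cytokines, which also holds Tnf, Il10, Il22 and Il17 genes, showed small differences in both directions. Il6 itself, Lif, Csf3, Il22, Il17a and Il17f were below the floor on both arrays. Of 10 measured genes of the cytokine list, 3 were at least 1.5-fold higher, 2 were lower and 5 lay between. Clcf1, a gp130 cytokine, was at 2.14 in Rosa26-Foxm1 and 1.31 in wild-type lung (0.71), Il1a at 4.90 against 3.02 in wild type (0.70) and Il18 at 9.44 against 5.92 in wild type (0.67). Il1b was at 44.6 in Rosa26-Foxm1 and 37.1 in wild-type lung (0.27). Ctf1, Il33 and Il11 stood at 0.43, 0.19 and 0.16, the last a lower bound near the floor. The 7 genes above 0 were thus the measured genes of the interleukin 6 and interleukin 1 families, and 3 of them differed by less than the probe SD. The 3 genes below 0, Tnf, Il17c and Il10, belong to neither family. The lower genes were Tnf, at 1.84 in Rosa26-Foxm1 and 2.76 in wild-type lung (-0.59), and the epithelial cytokine Il17c, at 2.13 against 3.31 in wild type (-0.63). Il10 was below the floor in Rosa26-Foxm1 lung and at 1.43 in wild-type lung.

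The interleukin 6 receptor chains and STAT3 were lower in Rosa26-Foxm1 lung. Il6ra was at 4.83 in Rosa26-Foxm1 and 8.33 in wild-type lung (1.72-fold lower). Il6st, which encodes gp130, was at 171 in Rosa26-Foxm1 and 269 in wild-type lung (1.57-fold lower), with its other probe below the floor on both arrays. Stat3 was at 39.2 in Rosa26-Foxm1 and 61.9 in wild-type lung (1.58-fold lower). Of 12 measured receptors of these cytokines, 1 was at least 1.5-fold higher, 3 were lower and 8 lay between. The higher one was the decoy receptor Il1r2, near the floor at 1.96 in Rosa26-Foxm1 and 1.14 in wild-type lung, and the third lower one was the granulocyte receptor Csf3r (149 against 231 in wild type, 1.56-fold lower). Il1rap stood at 0.39 and Il10rb at 0.34. Of 17 measured kinases and transcription factors none was at least 1.5-fold higher, and Stat3 and Stat6 (1.64-fold lower) were the 2 lower ones. The acute phase factor Cebpd stood at 0.35, and Cebpb at -0.14 and 0.13 by its pair of probes, without a settled direction. Stat4, Bcl3 and the kinase Tyk2 stood at 0.37, 0.35 and -0.51, and the NF-kB subunits Rela and Nfkb2 stood at -0.37 and 0.09. These are transcript levels, and phosphorylation of STAT3 was not measured.

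The list of genes that STAT3 and NF-kB are known to induce early, or that regulate them, had a median of 0.05 over 22 measured genes. It mixes induced genes with regulators such as the Pias and Ptpn genes, so the median is not one of induced genes alone. Among the 22, 2 were at least 1.5-fold higher, 1 was lower and 19 lay between. Socs1, the inhibitor related to Socs3, was at 10.8 in Rosa26-Foxm1 and 7.05 in wild-type lung (1.53-fold higher). Nfkbib, an inhibitor of NF-kB, was at least 2.15-fold higher at 2.16 in Rosa26-Foxm1 lung, with wild-type lung below the floor. Pias3, an inhibitor of STAT3, was at 2.58 in Rosa26-Foxm1 and 4.99 in wild-type lung (1.94-fold lower). Socs2 stood at 0.23, Cish at 0.30, Junb at 0.03, Pim1 at 0.36, Tnfaip3 at 0.12 and Icam1 at -0.16. Nfkbie stood at 0.56, and Ptpn6 and Socs5 at -0.39 and -0.49. Of the 22 genes, 13 differed by less than the probe SD.

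Other proteins that rise in plasma during the acute phase were examined next. Of 38 genes on that list, 21 had a probe, 13 were measured, 4 were at least 1.5-fold higher, none was lower and 9 lay between. The median of the 13 was 0.50, with 10 above 0, where 43.9% of all measured genes were above 0. Itih4, which encodes a plasma protein, was at least 4.86-fold higher at 4.87 in Rosa26-Foxm1 lung, with wild-type lung below the floor. The other 12 measured genes of this list, all above the floor on both arrays, lay between -0.27 and 0.82. Cd14, the lipopolysaccharide coreceptor, was at 27.1 in Rosa26-Foxm1 and 15.3 in wild-type lung (1.77-fold higher). Complement factor B (Cfb) was at 33.9 in Rosa26-Foxm1 and 20.6 in wild-type lung (1.65-fold higher), and the fibrinogen chain Fgg at 6.84 against 4.23 in wild type (1.62-fold higher). The fibrinogen chain Fga stood at 0.50, metallothionein Mt1 at 0.53 (0.86 by its other probe) and Il1rn, the interleukin 1 receptor antagonist, at 0.57. Serpina3n, an antiprotease that inflammation is known to raise in liver and brain, and the iron hormone gene Hamp both stood at -0.27, tissue factor (F3) at -0.11 and Lbp, which carries lipopolysaccharide, at 0.17. Crp, Apcs, A2m and Fgb were below the floor on both arrays.

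Of 5 measured genes for proteins that fall in plasma during the acute phase, 2 were at least 1.5-fold higher, none was lower by that fold and 3 lay between. Their median was 0.48, close to that of the proteins that rise, with 3 genes above 0 and 2 below. Fetub was at 5.37 in Rosa26-Foxm1 and 3.04 in wild-type lung (1.77-fold higher), and Apoa2 was close to the floor at 1.89 in Rosa26-Foxm1 and 1.24 in wild-type lung. Transferrin (Trf), the plasma iron carrier, was at 78.8 in Rosa26-Foxm1 and 108 in wild-type lung (-0.45), and the thyroid hormone carrier Ttr was below the floor in Rosa26-Foxm1 lung and at 1.47 in wild-type lung.

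**Figure D4:**
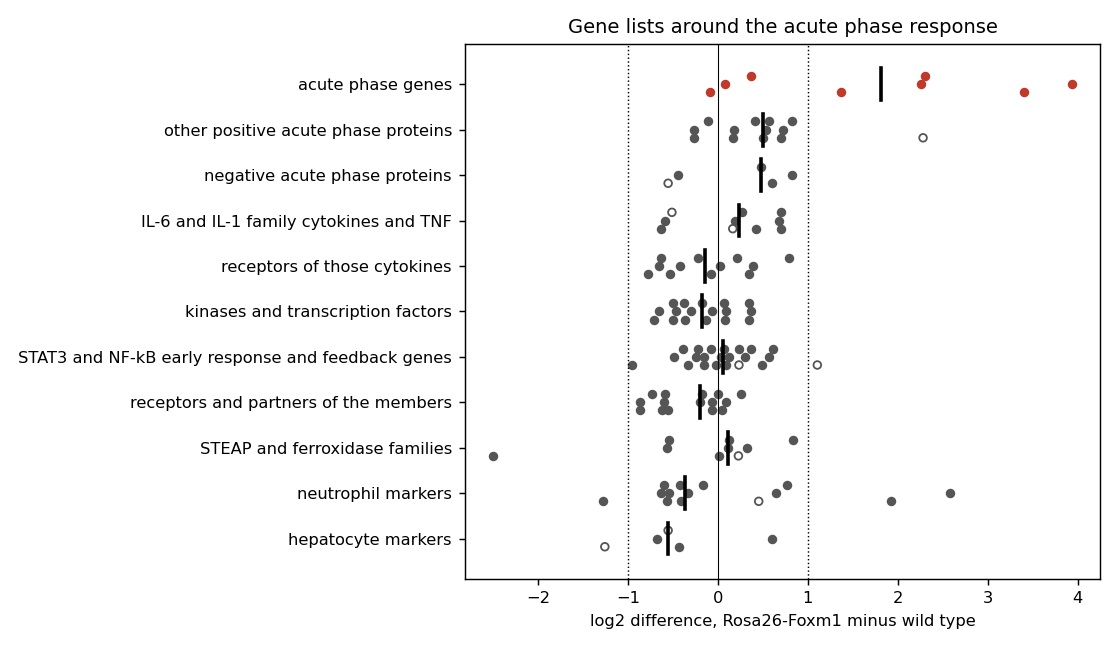
Log2 difference of Rosa26-Foxm1 minus wild-type lung for each measured gene of 11 lists, 1 point per gene, with black bars for medians, dotted lines at 2-fold and open circles where 1 array was below the floor. The acute phase genes (red) split into 5 right of the 2-fold line and 3 near 0, and the lists of cytokine receptors, kinases and response genes lie around 0.

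Markers of the cells that could supply these transcripts were read beside them. Lcn2 is stored in the granules of neutrophils. Of 14 measured neutrophil markers, 4 were higher by 1.5-fold or more, 3 were lower and the median was -0.37. Mpo, Elane, Ctsg and Padi4 were below the floor on both arrays. The calgranulins S100a8 and S100a9 stood at -0.33 and -0.41, the granule genes Ltf, Mmp8 and Ngp at -0.57, -0.55 and -1.28, the gelatinase Mmp9 at -0.60, and Camp was close to the floor (1.37 in Rosa26-Foxm1 lung, wild type below it). Those that were higher were the chemokine receptor Cxcr1 (7.53 in Rosa26-Foxm1 and 1.26 in wild-type lung, a log2 difference of 2.58), the lectin Clec4d (45.0 against 11.8 in wild type, 3.80-fold), Cd177 (8.70 against 5.11 in wild type) and the granule protease Prtn3 (2.64 against 1.69 in wild type). The summed intensity of all 18 neutrophil markers with a probe was 640 in Rosa26-Foxm1 and 804 in wild-type lung. S100a9 and Csf3r were the brightest of these probes and weigh most in the sums. The hepatocyte markers Alb, Apoa1, Ahsg, Apoh, Apoc3 and Tat were below the floor on both arrays, as were 10 of 15 hepatocyte markers in all. Of the 5 measured, Fabp1 stood at -0.43 and Cyp2e1 at -0.68, Apoa2 was near the floor, and Ttr and the gluconeogenic enzyme Pck1 passed the floor in wild-type lung alone. The summed intensity of the 15, probes below the floor included, was 23.3 in Rosa26-Foxm1 and 32.6 in wild-type lung, of which Fabp1 made up 13.5 in Rosa26-Foxm1 and 18.3 in wild-type lung.

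Macrophage and epithelial markers differed in both directions. Of 15 macrophage markers 5 were higher by 1.5-fold or more and 2 were lower. Gpnmb was at 125 in Rosa26-Foxm1 and 5.86 in wild-type lung (21.4-fold higher), Mmp12 at 95.8 against 8.72 in wild type (11.0-fold higher) and the lipid receptor Trem2 at 22.6 against 3.02 in wild type (7.49-fold higher), so these 3 genes differed by more than Chil1, Steap4 and Lrg1. The median of the list was 0.28, with a summed intensity of 4006 in Rosa26-Foxm1 and 3632 in wild-type lung. The scavenger receptor Msr1 was at 10.1 in Rosa26-Foxm1 and 3.11 in wild-type lung (3.24-fold higher), and Siglecf, a lectin of alveolar macrophages, at 6.15 against 14.7 in wild type (2.39-fold lower). Adgre1 stood at -0.56, and Marco was below the floor in Rosa26-Foxm1 lung (at least 1.68-fold lower). Of 12 alveolar type II markers 2 passed 1.5-fold upward, the fatty acid binding protein Fabp5 (1.73) and surfactant protein D (Sftpd, 0.94), and 2 downward, Etv5 (-0.71) and complement C5 (Hc, -0.98). Sftpa1 stood at 0.51 and Slc34a2 at -0.56. The median of the type II list was -0.30 with 7 of 12 below 0, while its sums, which its brightest probes set, were 7219 in Rosa26-Foxm1 and 6972 in wild-type lung. Of 14 measured club and goblet cell markers 2 were higher and 3 lower (median 0.10), with sums of 4478 in Rosa26-Foxm1 and 6203 in wild-type lung. The brightest probes set these sums too, with Scgb1a1 at 1767 against 2544 in wild type and Cyp2f2 at 1348 against 1703 in wild type. Pigr, the epithelial receptor that carries IgA into secretions, was at 112 in Rosa26-Foxm1 and 21.0 in wild-type lung (5.34-fold higher). Itln1 stood at 0.88 and Reg3g at 0.44, and Aldh1a1, Cyp4b1 and Ces1d at -0.63, -0.72 and -0.86. The part of these cell types in the values of Lcn2, Saa3, Chil1, Steap4 and Lrg1 was not tested.

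The measured genes nearest to Lcn2 in log2 difference, among those above the floor on both arrays, were Tnfrsf9, a costimulatory receptor of T cells (11.1-fold higher), the macrophage elastase Mmp12 (11.0-fold) and Gpnmb, a glycoprotein of lipid-laden macrophages (21.4-fold). They lay 0.46, 0.48 and 0.49 from it on the log2 scale, each more than the probe SD. Nearest to Saa3 were the anion exchanger Slc26a4 (10.6-fold), the neutrophil attractant Cxcl1 (10.8-fold) and Mmp12, all within 0.05. This likeness rests on 1 difference between 2 arrays. Among 10 measured CXC chemokines 5 were at least 1.5-fold higher, with Cxcl2 at 11.0 in Rosa26-Foxm1 and 3.16 in wild-type lung (3.49-fold), Cxcl9 and Cxcl13 at 1.11 and 1.03 on the log2 scale, and none was lower. Cxcl15 stood at 0.41 and Ppbp at 0.32. Cxcl12, whose probes gave -0.57 and 0.53, had no settled direction.

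**Figure D5:**
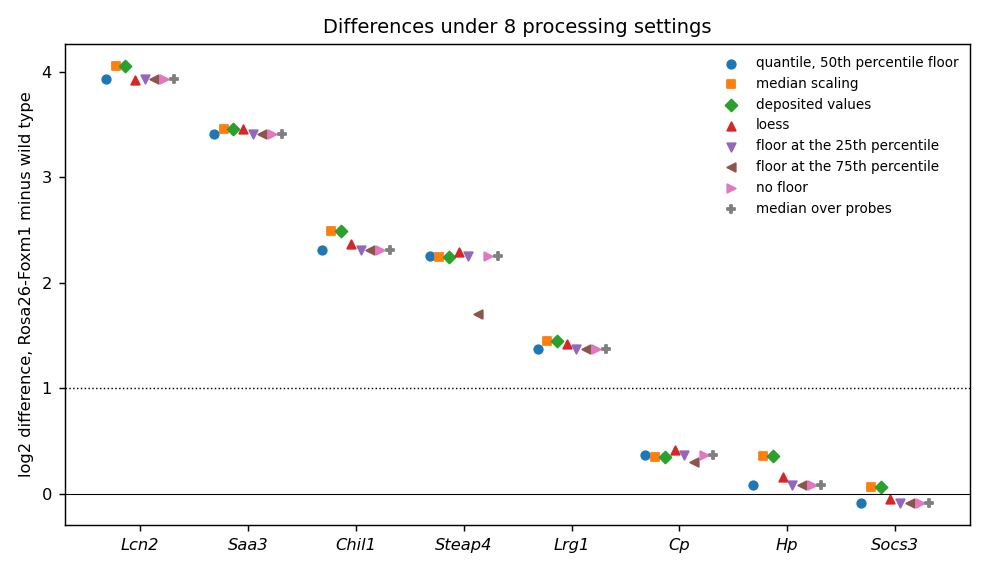
Log2 difference of Rosa26-Foxm1 minus wild-type lung for each acute phase gene under 8 processing settings (1 marker each), with a dotted line at 2-fold. Lcn2, Saa3, Chil1, Steap4 and Lrg1 stay above the line in all 8 settings, Steap4 is at 1.70 with the floor at the 75th percentile, and Socs3 lies on both sides of 0.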

How the data were processed

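RNA of 2 lung pools was measured on 1 array each. Per the labels' protocols, total RNA was taken with RNA STAT, treated with DNase on columns and labelled with digoxigenin by a chemiluminescent in vitro transcription kit. The deposited values are linear probe intensities, which the authors gave with a median of 1.00 on both arrays. Their software for image reading, background correction and scaling was not given in the sources used here.

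Probes were named through the platform annotation, updated by gene ID to RefSeq symbols (GRCm38.p6). Among 33012 probes, 14411 carried 1 gene, 247 carried several and were named for none, and for 18354 the table lists no gene. Of 13840 named genes, 13832 matched a RefSeq ID. Intensities were quantile normalised, floored at the 50th percentile and log2 transformed, and a gene was represented by its brightest probe. A fold against an array below the floor is a lower bound ("at least"). The probe SD came from the pair of brightest measured probes of each gene.

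The genes and the 20 other lists were chosen with earlier results of these data known. By the rule, the genes named were the members, up to 3 genes at each end of a list, those at least 1.5-fold apart, and the 3 nearest to Lcn2 and to Saa3. Other list genes, such as those below the floor, were named for their role, with their values known. Lrg1 was taken out of the leucine-rich repeat list. The steps were run on simulated data, with changes larger than 2-fold and noise below the probe SD. That run checked the code and not the precision of the values given here. Python 3.11.15, pandas 2.3.3, numpy 2.4.6 and statsmodels 0.14.6 were used.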

Additional observations from a re-analysis of the deposited data

How the results depend on the processing

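The values were recomputed with median scaling, on the values as deposited, with loess (span 0.3), with the floor at the 25th or the 75th percentile or without one, and with the median over a gene's probes. Under all 7, 5 of 8 acute phase genes were 2-fold or more above wild type in Rosa26-Foxm1 lung, and their median lay between 1.54 and 1.85. Lcn2 ranged from 3.92 to 4.05, Saa3 from 3.41 to 3.45, Chil1 from 2.31 to 2.49, Lrg1 from 1.37 to 1.45, Cp from 0.31 to 0.41 and Hp from 0.08 to 0.36. Steap4, otherwise at 2.24 or above, was at 1.70 with the floor at the 75th percentile, which lies above its wild-type value. Socs3 ran from -0.09 to 0.06. Of the other acute phase proteins 4 were at least 1.5-fold higher in the main setting, 2 with the floor at the 75th percentile (7 measured) and 8 with no floor (21 measured). Under each of the remaining alternatives 5 were, of 20 measured with the floor at the 25th percentile and of 13 otherwise. Among all measured genes, 188 were 2-fold higher and 144 lower, against 44 and 21 with the floor at the 75th percentile, 539 and 532 with it at the 25th, and 791 and 823 with none. In all, 74 of 77 values moved by less than the probe SD, or for counts by less than 1.5 times. The alternative with the median over probes cannot differ for these 8 genes, which have 1 probe each. Nor can a lower floor or none, since all 8 were above the floor on both arrays. Median scaling and the deposited values are almost the same data, as both deposited medians are 1.00. The count of 74 of 77 therefore rests in part on alternatives that could not move these genes. No paired analysis was possible because each genotype has 1 array. No replicate could be left out, and probes near the floor are limited by their signal.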

Other observations

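Structural relatives of the acute phase proteins were also present on the arrays. Of 15 lipocalin family genes with a probe, besides Lcn2, 10 were below the floor on both arrays and the 5 measured ones lay between 0.11 and 0.52 on the log2 scale. Rbp4, the plasma carrier of retinol, was at 21.0 in Rosa26-Foxm1 and 15.0 in wild-type lung, and Apod, a lipid-binding lipocalin, at 8.28 in Rosa26-Foxm1 and 6.84 in wild-type lung. Lcn8 stood at 0.11. The values of Lcn4 (0.52) and Ptgds (0.28) are lower bounds, since wild-type lung was below the floor for both.

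Of 10 measured secreted leucine-rich repeat proteins other than Lrg1, none was at least 1.5-fold higher and 2 were lower. The matrix proteoglycan biglycan (Bgn) was at 45.2 in Rosa26-Foxm1 and 80.3 in wild-type lung (-0.83), and Prelp at 157 in Rosa26-Foxm1 and 261 in wild-type lung (-0.74). Lumican (Lum) was at 4.96 in Rosa26-Foxm1 and 3.47 in wild-type lung (0.52), and Omd, Fmod and Aspn stood at 0.26, 0.20 and -0.54. Decorin (Dcn) stood at -0.05, and at 0.17 with median scaling. Of 13 measured fibroblast and smooth muscle markers, none was higher by 1.5-fold and 4 were lower, with a median of -0.52. The lower ones were Npnt (-0.98), Pdgfra (-0.88), Pdgfrb (-0.79) and Tcf21 (-0.61), and Tagln stood at -0.10.

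Blood cell genes, read as a measure of blood in the tissue, gave values in both directions. The globin gene Hba-a1 was at 1603 in Rosa26-Foxm1 and 2075 in wild-type lung (-0.37), and Alas2, the haem synthesis enzyme of red cell precursors, at 55.4 in Rosa26-Foxm1 and 106 in wild-type lung (-0.94). The platelet chemokine Pf4 was at 53.1 in Rosa26-Foxm1 and 27.0 in wild-type lung (0.97).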
